A study of Homo sapiens with 8 samples.

Results

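RBFOX2 binding to the transcripts of 8 formin genes was measured in HEK293T cells, a human embryonic kidney line, by eCLIP. In eCLIP, ultraviolet light crosslinks a protein to the RNA it touches, the protein is immunoprecipitated (IP), and the attached RNA is sequenced beside an input taken before the IP. The genes were FMNL1, FMNL2, FMNL3, DIAPH1, DIAPH2, DIAPH3, DAAM1 and INF2. A called peak was assigned to a gene when its midpoint lay in the RefSeq span of that gene, on the strand of the gene. This gave 1924 of the 1118316 called peaks in the 4 deposited lists.

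The series has 8 samples, 4 IP libraries against RBFOX2 and 4 paired inputs, all from the same line, with no treatment named beyond crosslinking. The cells received 400 mJ/cm2 of 254 nm light, and the input was 2% of the sample it is paired with. Each list gives, per peak, the authors' −log10 p and log2 fold of the IP over the input of the same number. The labels do not say whether the replicates came from separate cultures, so p-values measure only the spread between these libraries, which may be technical. No knockout or other antibody is among the samples.

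Formins assemble unbranched actin filaments. Their FH2 domains form a dimer that stays on the growing filament end, and their FH1 domains deliver actin bound to profilin. Many are held closed by contact between their own ends until they are activated. RBFOX2 is a splicing regulator that binds GCAUG in RNA, often in introns near regulated exons, and transcripts of cytoskeletal proteins are among its known targets. Sequences of the bound regions are not printed, since no genome was used here, and exon and intron positions are not given for the same reason.

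Among the formins, 1 site stood out. DIAPH1, a formin of stress fibres and the cell cortex, held the single stretch enriched in all 4 libraries, with a mean log2 fold of 4.08 ± 0.72 (SD, n = 4). That was 1 of 1337 merged formin regions (0.0748%), against 0.0797% of all merged regions. FMNL3, FMNL2 and INF2 held weaker regions that lay above input against the spread between libraries. In all, 5 of 55 tested formin regions lay above input (9.09%), against 21.1% of all tested regions. This gap was not seen in fits against a log2 fold of 1 or without 1 replicate, but was kept in other alternative fits. DIAPH2, DIAPH3 and DAAM1 held none that passed the test, and FMNL1 had no region called in all 4 libraries and so none to test.

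Peaks were called in all 8 genes, but their number differed widely. A called peak need not lie above input. The −log10 p was 0 in 82.3% ± 9.63 of called formin peaks and 74.1% ± 8.03 of all called peaks (SD, n = 4 for both). DIAPH3 had 152, 142, 140 and 133 called peaks in replicates 1 to 4, and FMNL2 had 136, 141, 129 and 128. Their ranges overlapped, though DIAPH3 was the higher in each library. Both lay above the rest of the 8 genes in each library. DIAPH2 followed with 79 to 95, then INF2 with 36 to 41 and DIAPH1 with 31 to 44, whose ranges overlapped. DAAM1 had 20 to 28 and FMNL3 14 to 22, again overlapping. FMNL1, a formin best known from blood cells, had 2, 5, 3 and 2. More called peaks than in DIAPH3 or FMNL2 were found in few genes: 98.6% and 98.3% of 9301 protein-coding genes with a called peak in each library had fewer. For FMNL1 this share was 7.35%.

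**Figure D1:**
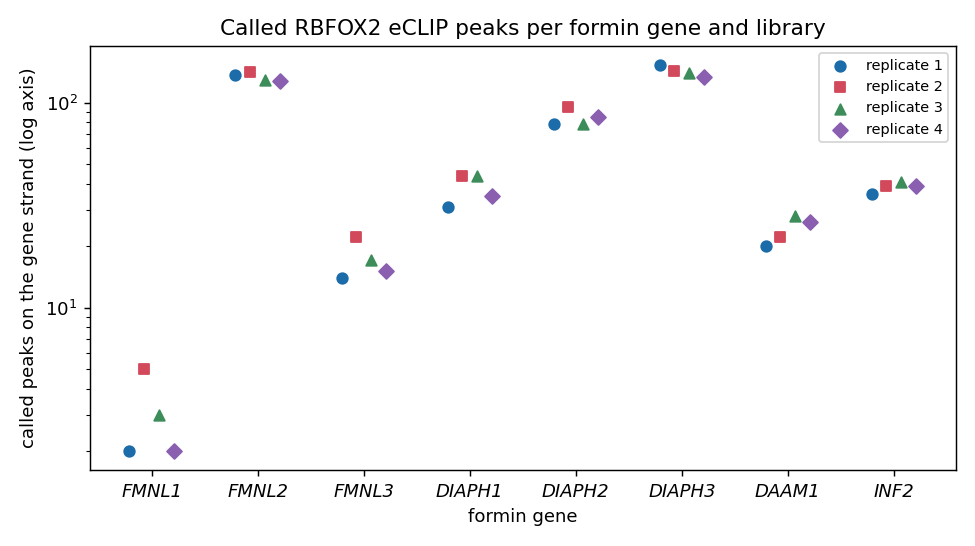
Called peaks on the gene strand (log axis) in each of the 8 formin genes, with 1 point per IP library. FMNL2 and DIAPH3 sit highest at 128 to 152 peaks, and FMNL1 lowest at 2 to 5.

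The order changed when gene length was taken into account. INF2, whose span is only 41.4 kb, had the densest peaks, at 9.36 ± 0.498 per 10 kb. FMNL2 had 4.24 ± 0.195 and DIAPH1 3.70 ± 0.631 per 10 kb (SD, n = 4 for each), and their ranges overlapped. DIAPH2, with the longest span at 920 kb, had the lowest mean density, at 0.918 ± 0.0820, and overlapped FMNL1 at 1.18 ± 0.556 (SD, n = 4 for both). The lists hold no RNA levels, so a transcript that is scarce and one that is rarely bound cannot be told apart from these counts. Nor do the counts measure binding above input, as most called formin peaks had a −log10 p of 0.

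The position of the peaks also differed between genes. In INF2, a formin that can both assemble and sever filaments and acts at the endoplasmic reticulum, RefSeq's promoter table lists 4 start sites. None of the 155 called INF2 peaks lay upstream of the most downstream of them, which is 8.49 kb into the span, and the first peak came at 8.55 to 10.2 kb over the 4 libraries. In DAAM1, which links Wnt signalling to actin through Dishevelled, 59 of 96 called peaks lay upstream of the second start site. In DIAPH3 this was 165 of 567. In FMNL1 the first called peak lay 12.4 to 14.0 kb into a span of 25.4 kb. In the remaining genes, FMNL2, FMNL3, DIAPH1 and DIAPH2, the first peak lay within 0.654 kb of the gene start in every library.

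Called peaks on the opposite strand were rare in all genes but FMNL1. DIAPH1, DIAPH2, DIAPH3, DAAM1 and INF2 had 0 in each library, FMNL2 had 1 over all libraries and FMNL3 had 1 or 2 per library. FMNL1 had 7 to 9 per library on the opposite strand, more than on its own, and the span overlaps that of FMNL1-AS1, an antisense RNA. No opposite-strand peak was enriched.

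Peaks counted as enriched when the log2 fold and the −log10 p both reached 3, limits customary for eCLIP. Each library held 1 enriched formin peak, or 0.208% ± 0.00873 of called formin peaks (SD, n = 4), against 0.818% of all called peaks. All 4 were the same DIAPH1 site. With only a −log10 p of at least 1.3 asked for, the formins had 2, 2, 5 and 4 peaks per library, or 0.680% ± 0.322 (SD, n = 4), against 3.12% of all called peaks. These lay in DIAPH1, FMNL2 and FMNL3. A log2 fold of at least 1 (within 0.01) was found for 22.4% ± 1.40 of formin peaks and 27.4% ± 1.25 of all called peaks (SD, n = 4 for both). These 3 shares of the formins all lay below those of the whole lists, and the differences were not tested.

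To set the folds against their spread, overlapping called peaks of the 4 libraries were merged into regions. The formins had 1337 regions, of which 989 came from 1 library and 55 (4.11%) from all 4, against 7.06% from all 4 in the whole series. An enriched peak from every library was found in 1 of the 1337 (0.0748%), against 0.0797% of all merged regions. In each of the 55, the peak with the highest −log10 p stood for its library, and the mean log2 fold was tested against 0 with limma over all 49493 such regions. No called peak with a log2 fold below 0 had a −log10 p above 0. Choosing by −log10 p thus favours folds above 0, but only where a library had more than 1 peak in a region. In most of the 55 each library had 1 peak, so the choice had no effect there. The median called peak lay near 0, and the median of the tested regions was 0.50. How far this choice, or the limit to regions called in all 4 libraries, made that shift was not tested. Calls above input, and the scarcity of calls below, may thus be partly built in, for the formins as for all regions. In the formins 5 regions were above input, 9.09% of those tested, against 21.1% of all tested regions. The 5 lay in DIAPH1, FMNL3, FMNL2 (2 regions) and INF2. None was below input, against 1.81% of all tested regions, and at an unadjusted p under 0.05 there were 12 formin regions above (21.8%) and 0 below, against 32.8% and 4.47% of all tested regions. Against a log2 fold of 1 in place of 0, limma called 3 formin regions (5.45%) and 5.6% of all tested regions. Without 1 replicate it called 3 to 5 (5.45% to 9.09%), against 7.11% to 8.83% of all tested regions, and without replicate 3 the formin share was the higher. The gap between 9.09% and 21.1% was therefore not seen in these fits. It was kept with the peak of the highest log2 fold (9.09% against 21.1%) and with an eBayes trend (9.09% against 20.5%). The gap itself was not tested. The median of the mean log2 fold was 0.50 over the formin regions and 0.50 over all tested regions. By gene, 4 of the 7 formins with a tested region held one above input, against 38.1% of protein-coding genes with a tested region. A region enriched in all 4 libraries was held by 1 of the 8 formins, against 2.4% of protein-coding genes with a called peak in each library. These shares per gene take no account of peak number. The median of the latter genes was 54 called peaks over the 4 libraries, and of the 8 formins only FMNL1, at 12, had fewer.

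**Figure D2:**
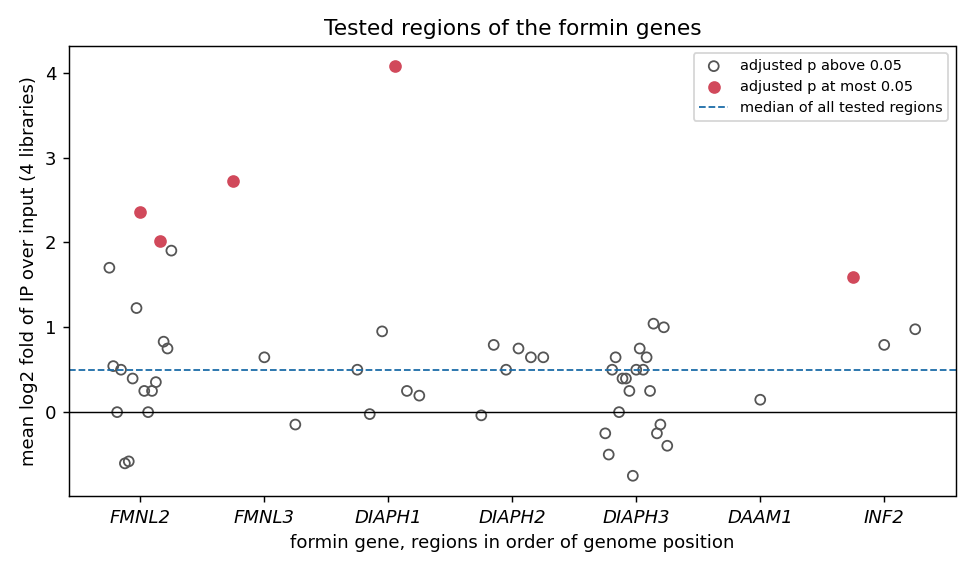
Mean log2 fold of IP over input for each of the 55 tested formin regions, by gene, with filled points for regions at a limma adjusted p of at most 0.05 and the median of all tested regions as a dashed line. The 5 filled points lie between 1.60 and 4.08, and most of the others lie near the median of 0.50.

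The DIAPH1 region ran from 141587955 to 141588254 on chromosome 5, minus strand (GRCh38), 30.9 kb from the gene start and 73.1 kb from its end. Replicates 1 to 4 gave log2 folds of 4.39, 4.32, 3.001 and 4.58. Replicate 3 was the lowest, and the other 3 lay close together. In replicate 3 the fold and the −log10 p of 3.14 only just passed the limits of 3. Enrichment in all 4 libraries thus rests on a narrow margin there. The authors' −log10 p was 4.96, 4.96, 3.14 and 5.81 in the same order. The region passed the limma test with an adjusted p of 0.00469, and only 0.727% of all tested regions had a higher mean. It kept its call in each of the 7 alternative fits, with an adjusted p between 0.00329 and 0.0435.

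The 4 peaks behind these values were 155, 138, 141 and 168 nt long, and a stretch of 128 nt, from 141587969 to 141588096, lay in all of them. Next to it, on the 5′ side of the transcript, each library had a further peak with a lower fold. At its highest −log10 p this flank had a log2 fold of 2.32 in replicate 1, 1.81 in replicate 2, 2.701 in replicate 3 and 2.81 in replicate 4. The core is the peak with the highest −log10 p in each library, so the lower fold of the flank follows largely from that choice and is given as a description. The neighbouring tested regions were much lower. The one 31.4 kb from the gene start had a log2 fold of 1.00, 2.81, 1.00 and −1.0, which scattered around a mean of 0.95 ± 1.56 (SD, n = 4, limma adjusted p = 0.335). The one at 29.9 kb had a mean of 0.25 ± 0.50 (SD, n = 4) and lies inside the span of the pseudogene RPS27AP10. At the start of DIAPH1, 0.095 kb into the gene, a region had a mean of 0.19 ± 0.95 (SD, n = 4).

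**Figure D3:**
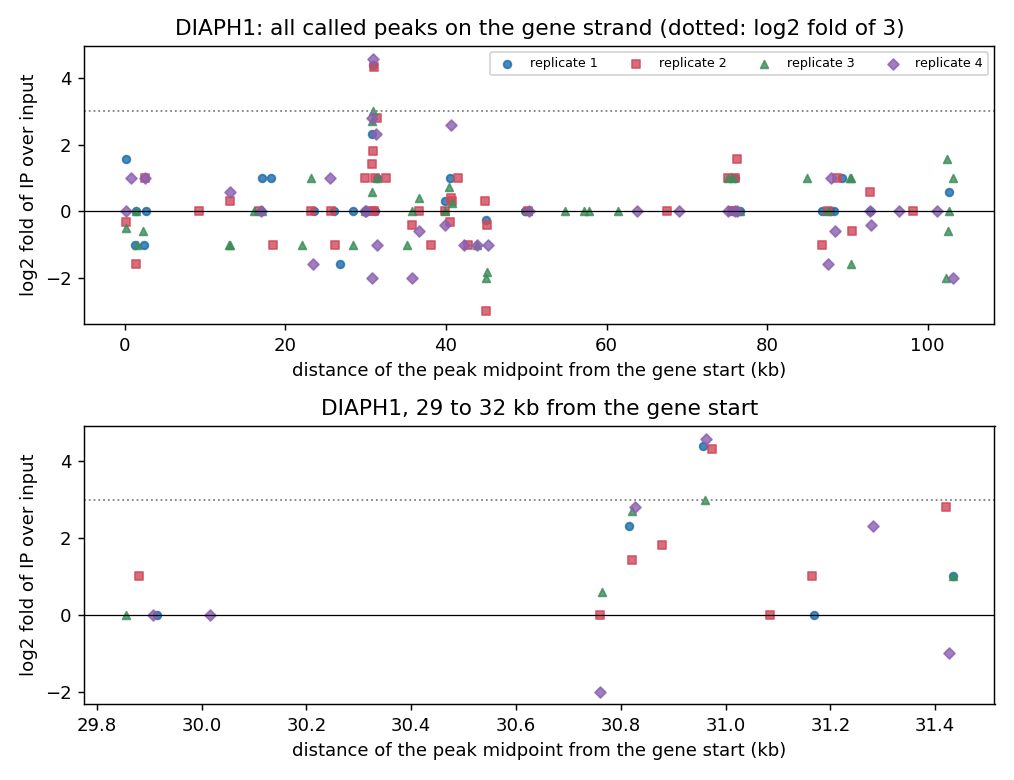
Log2 fold of IP over input for each called DIAPH1 peak against the distance of its midpoint from the gene start, over the whole gene (upper plot) and from 29 to 32 kb (lower plot), coloured by library. All 4 libraries peak near 30.96 kb with folds of 3.001 to 4.58, and no other DIAPH1 peak reaches the dotted line at 3.

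FMNL3, a formin of filopodia and cell protrusions whose transcript has been described as an RBFOX2 target, held the next strongest region. It lay on chromosome 12 from 49646358 to 49646579, minus strand, 60.9 kb from the gene start and 9.97 kb from its end. The 4 libraries gave 2.32, 2.59, 3.001 and 2.9995 in order of replicate, with a mean of 2.73 ± 0.33 (SD, n = 4) and a limma adjusted p of 0.00511. All 4 libraries were above 0 and close together. Log2 folds move in steps here, and how far the steps set this closeness was not tested. The authors' −log10 p was only 0.660 and 1.15 in replicates 1 and 2. In replicate 3 the fold reached the limit of 3 but the −log10 p was 1.67, and in replicate 4 the fold fell just short of it with a −log10 p of 1.41. The peaks of the 4 libraries were staggered and had 35 nt in common. The other tested regions of FMNL3 both lay within 2 kb of the gene start and had means of 0.65 ± 0.47 and −0.15 ± 1.07 (SD, n = 4 for both).

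In FMNL2, a Rac- and Cdc42-linked formin of lamellipodia and the closest relative of FMNL3, 17 regions were tested and 2 were above input. The first lay on chromosome 2 from 152440255 to 152440425, plus strand, 105 kb into the gene. Its log2 fold was 2.00, 2.32, 2.81 and 2.32, with a mean of 2.36 ± 0.33 (SD, n = 4) and a limma adjusted p of 0.00624. The libraries again lay close together, and 37 nt were common to their peaks. A region just upstream, at 104.7 kb, had a log2 fold of 2.32, 1.59, −1.0 and 2.00. Replicate 3 alone was below input there, and the region did not pass the test (limma adjusted p = 0.227). Without replicate 3 it did, at a limma adjusted p of 0.0433. Just downstream, at 106.2 kb, a tested region had a mean of only 0.25 ± 0.93 (SD, n = 4).

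The second region of FMNL2, named after its values were seen, lay from 152643389 to 152643517, 6.37 kb before the end of the gene. Its log2 fold was 2.58, 2.59, 1.59 and 1.32, with a mean of 2.02 ± 0.66 (SD, n = 4) and a limma adjusted p of 0.0161. The authors' −log10 p was 0.903, 1.15, 0.746 and 0.344, below 1.3 in each library. The call was lost when any 1 replicate was left out and when the fold was tested against 1, with adjusted p-values up to 0.135. It was 1 of 4 tested regions in the last 7 kb of the span, a window not planned beforehand or compared with other gene ends. Their mean log2 folds were 0.75 to 2.02, all above the median of 0.50. The one nearest the end, 4.60 kb before it, had a log2 fold of 2.81, 2.00, 0.00 and 2.81 and a limma adjusted p of 0.0684, which became 0.0411 without replicate 3. At the start of FMNL2, 0.322 kb into the gene, a region had 2.58, 1.42, 2.81 and a value near 0 in replicate 4 (mean 1.70 ± 1.29, SD, n = 4, limma adjusted p = 0.0856). The lowest means of the gene, −0.60 ± 1.44 and −0.58 ± 1.07 (SD, n = 4 for both), were found inside the span of the pseudogene NUDCP1. Another tested region in that span had a mean of 0.40 ± 0.79 (SD, n = 4).

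INF2 had 3 tested regions. The strongest lay on chromosome 14 from 104707752 to 104707976, plus strand, 26.7 kb into the gene, with a log2 fold of 1.58, 1.81, 2.00 and 1.00. Its mean was 1.60 ± 0.43 (SD, n = 4) with a limma adjusted p of 0.0174. Replicate 4 was the lowest, and no base was common to the peaks of all 4 libraries. The peaks of replicates 1, 2 and 3 shared the stretch from 104707887 to 104707939, while the peak of replicate 4 ended before it, at 104707864. The mean thus joins a site shared by replicates 1 to 3 with a neighbouring peak of replicate 4. The call was lost without replicate 1, 2 or 3, and also against a log2 fold of 1, with adjusted p-values up to 0.270. The other INF2 regions, at 34.5 and 37.4 kb, were high in replicate 2 alone, where both had a log2 fold of 2.59.

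**Figure D4:**
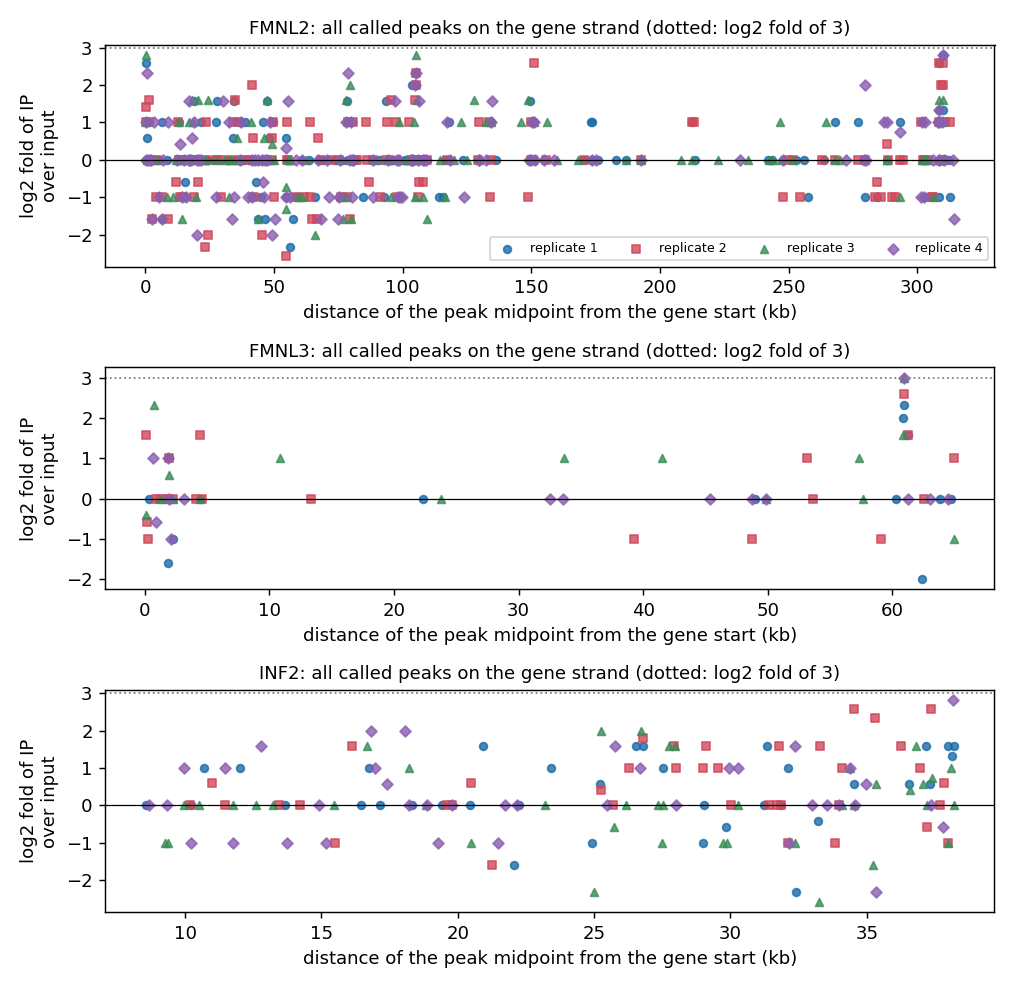
Log2 fold of IP over input for each called peak of FMNL2, FMNL3 and INF2 against the distance of its midpoint from the gene start, coloured by library. FMNL3 has 1 cluster of high folds near 60.9 kb, FMNL2 has clusters near 0.3, 105 and 308.3 to 310.1 kb, and INF2 peaks begin only after 8.5 kb.

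The other Diaphanous formins and DAAM1 had no region above input. DIAPH3, a formin with roles in filopodia and cell division, had 19 tested regions with means from −0.75 to 1.04. Its highest region, on chromosome 13 from 60055453 to 60055613, had a log2 fold of 1.00, 1.59, 1.59 and a value near 0 in replicate 4 (mean 1.04 ± 0.75, SD, n = 4, limma adjusted p = 0.104). DIAPH2, encoded on the X chromosome, had 6 tested regions, and its highest, from 96688981 to 96689125, had 0.58, 1.00, 0.00 and 1.58 (mean 0.79 ± 0.67, SD, n = 4, limma adjusted p = 0.159). In both, a library near 0 lay beside libraries at or above 1. DAAM1 had 1 tested region, 0.329 kb from its start, with a mean of 0.15 ± 0.29 (SD, n = 4, limma adjusted p = 0.707). DIAPH3 thus had no fewer called peaks than FMNL2 but none with a −log10 p of 1.3, while FMNL2 had 3 over the 4 libraries.

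**Figure D5:**
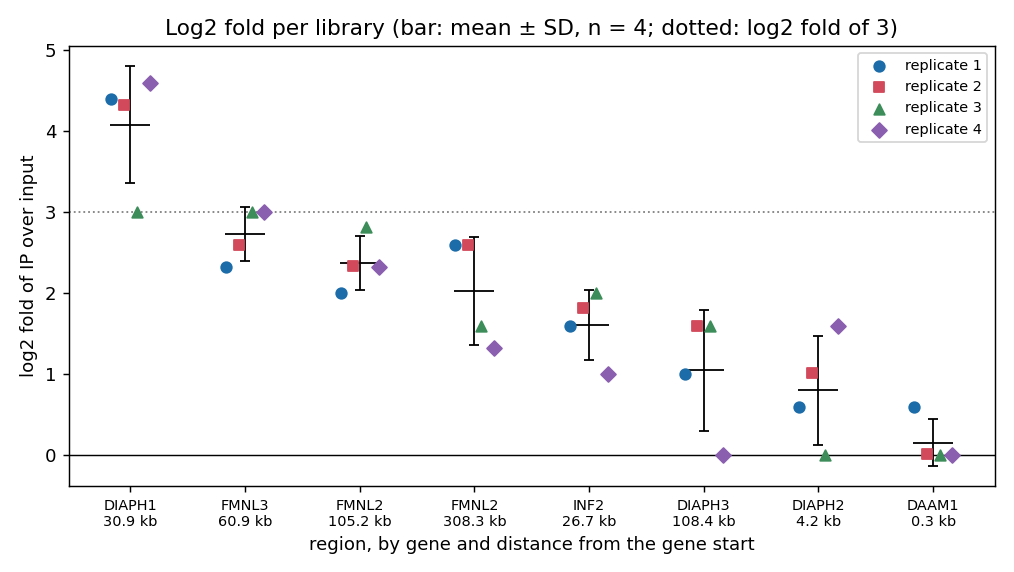
Log2 fold of IP over input in each library for the highest tested region of each formin and for the second called FMNL2 region, with the mean ± SD (n = 4) as bars. DIAPH1 stands highest, meets FMNL3 only through replicate 3, and the regions of DIAPH3, DIAPH2 and DAAM1 each have a library near 0.

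In the order of the highest region per gene, DIAPH1 stood above FMNL3 in replicates 1, 2 and 4, and both had 3.001 in replicate 3. The ranges of FMNL3 and FMNL2 overlapped, as did those of FMNL2 and INF2, INF2 and DIAPH3, DIAPH3 and DIAPH2, and DIAPH2 and DAAM1. Within each library, though, FMNL3 was above FMNL2, FMNL2 above INF2 and INF2 above DIAPH3. DIAPH3 was above DIAPH2 except in replicate 4. DIAPH2 was above DAAM1 in replicates 2 and 4 and level with it in replicates 1 and 3. The regions compared are the highest of 1 to 19 per gene, so genes with more regions had more chances of a high value.

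Of the formins, only FMNL2, DIAPH2 and DIAPH3 had at least 50 called peaks in each library, and of these 3 FMNL2 had the highest mean share of peaks with a log2 fold of at least 1, at 27.2%, 26.2%, 23.3% and 25.8% in replicates 1 to 4. INF2, FMNL3 and DIAPH1, with fewer peaks, had higher mean shares, of 33.8%, 30.4% and 26.6%, against 25.6% for FMNL2. The 3 of 808 genes with at least 50 peaks whose shares lay nearest to those of FMNL2 over the 4 libraries were CDYL, SNX9 and ARHGAP32, at Euclidean distances of 2.01, 2.48 and 2.93 percentage points. The median gene had 26.7%, 24.6%, 23.7% and 24.8%, so FMNL2 was close to the median.

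A list of 46 other genes of formin-dependent actin assembly was examined in the same fit, of which 41 had a strand in the tables used. The other 5 were PFN2, RAC1, COBL, WASF2 and ACTB. Of 215 tested regions in 37 of these genes, 40 (18.6%) were above input and 2 below, against 21.1% and 1.81% of all tested regions. The median of the mean log2 fold was 0.33 over the list. Proteins that bind formins had 16 of 49 regions above input, spread over 5 of 9 genes, 6 of them in DVL1, a Dishevelled protein that binds DAAM1. Capping proteins and the actin-controlled SRF transcription axis had 3 of 40, other nucleators 3 of 38, and the formins outside the 8 genes 2 of 23. Fits without 1 of the replicates made 8 to 14 calls in place of 40 (3.72% to 6.51%, against 7.11% to 8.83% of all tested regions), and a test against a log2 fold of 1 made 4 (1.86%, against 5.6%).

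The highest region of the list was in ACTG1, cytoplasmic gamma actin, the substrate of the formins. Its log2 fold was 3.27, 3.66, 4.30 and 4.37 (mean 3.90 ± 0.53, SD, n = 4, limma adjusted p = 0.00435), and it was enriched in all 4 libraries. ACTG1 is nearly identical to ACTB and to pseudogenes, so reads may be shared between copies. ECT2, which acts in cell division, had 4.00, 3.46, 2.42 and 3.91 (mean 3.45 ± 0.73, SD, n = 4, limma adjusted p = 0.00592). CDC42, the GTPase that opens several formins, had 2.46, 3.81, 4.00 and 2.32 (mean 3.15 ± 0.88, SD, n = 4, limma adjusted p = 0.00862). Both were enriched in some of the libraries, ECT2 in 3 and CDC42 in 2. FNBP1, a membrane-bending formin binder, reached a mean of 2.72 ± 0.36, and ARHGEF12, a guanine nucleotide exchange factor, 2.62 ± 1.02 (SD, n = 4 for both, limma adjusted p = 0.00531 and 0.0173). The mean of the DIAPH1 site, 4.08, thus lay inside the range of the 4 ACTG1 values.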

How the data were processed

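The authors deposited 1 peak list per IP library, without a header. The first value was read as −log10 of a p-value and the second as the log2 fold of IP over input, from the values: the deposited −log10 p was never negative and stopped at 400, and the log2 folds took both signs. Per the submitters' processing notes, UMI-tools 1.1.1, cutadapt 3.2, STAR 2.7.7a, hg38 and GRCh38.p13 were used, in roles that are not given. Peak caller, p-value test, scaling and filters are not given in the sources used here. Read counts were not used, so depth is unknown and counting intervals are left out.

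Spans came from RefSeq (GRCh38.p14) and strands from its promoter table, for all 8 members. Coordinates are 1-based. Peaks were merged at 1 nt of overlap on 1 strand. The fit was limma 3.58.1 in R 4.3.3 (intercept only, eBayes, two-sided, Benjamini-Hochberg over 49493 regions, threshold 0.05). The code was tested on simulated data with noise centred on 0. The simulation left out the choice of the peak with the highest −log10 p and the steps of the log2 fold. It therefore cannot show how these affect the calls. Python 3.11.15, numpy 2.4.6 and pandas 2.3.3 did the rest.

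Named were all members, regions enriched in at least 3 replicates or past the threshold with a mean of at least 3, the highest region per member, the 5 highest genes of the actin list, and the 3 genes alike. Members and lists were chosen with earlier results of these data known.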

Additional observations from a re-analysis of the deposited data

Results flagged for a closer look

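With 4 libraries per value, 32 sets of values were checked for a library far from the others, and 7 held one, while chance gives about 1 in 20. Log2 folds move in steps, so equal values in 3 libraries are common here. In the DIAPH1 region, replicate 3 stood apart at a log2 fold of 3.001, which is also the highest fold of that library in DIAPH1. In the DAAM1 region, replicate 1 stood apart at 0.58. For the highest fold of any peak in a gene, replicate 2 stood apart in FMNL2 at 2.59, in DIAPH2 at 2.00 and in DAAM1 at 1.00, and replicate 4 in DIAPH3 at 2.32. The cause was not tested.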

How the results depend on the processing

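The single enriched DIAPH1 site was kept under a −log10 p of at least 3.1 in replicates 2 and 3 and under mutual overlap of at least 50%. It was also kept under a log2 fold of at least 1 and without each replicate in turn. Those settings are looser than the main one and could not have lost the site. With a −log10 p of at least 5 there were 0.25 enriched formin peaks per library and 0 regions in all 4. Asking for a log2 fold of 4 without a limit on p left 0 regions in all 4. Settings added after seeing the data were a log2 fold of at least 2.9, which changed neither count, and a −log10 p of at least 1.3 alone, which gave 3.25 peaks per library. Formin regions above input went from 5 to 3 against a log2 fold of 1, and to between 3 and 5 without 1 replicate, with DIAPH1, FMNL3 and the FMNL2 region at 105 kb called each time. Without replicate 1 and without replicate 2 they were 3. They stayed at 5 with the peak of the highest log2 fold and with an eBayes trend (9.09%, against 21.1% and 20.5% of all tested regions). The actin list went from 40 to 4 against a log2 fold of 1 and to between 8 and 14 without 1 replicate. All tested regions fell in the same fits, from 21.1% above input to 5.6% against a log2 fold of 1 and to between 7.11% and 8.83% without 1 replicate, so the formin share of 5.45% to 9.09% was near that of all regions there. No value reversed. The GCATG and exon comparisons were not run, for want of a genome. Each log2 fold is already the ratio of an IP to the input of its number, so the fit is itself paired. No paired analysis was possible beyond this, because the lists give no separate IP and input values.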
